A study of Mus musculus with 6 samples.

Results

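The mTOR pathway genes described here are 10 genes chosen by name, namely the kinase Mtor, the complex subunits Rptor, Rictor, Mlst8 and Deptor, the upstream switch Tsc1, Tsc2 and Rheb, and the translation effectors Eif4ebp1 and Rps6kb1. A gene was taken where its symbol stood in both deposited tables, which held for 10 of the 10 among 17463 listed genes. All 10 passed the filter on low counts, which left 11277 genes for testing. The samples were erythroblasts from the fetal liver of C57BL/6J mice, purified as cells without TER119, a surface protein gained as red cells mature. Culture lasted 30 h with erythropoietin in the medium, the cytokine that drives red cell maturation, and the study's methods state that TER119+ cells were then sorted. The control samples (n = 3) received no cholesterol and the cholesterol samples (n = 3) received 40 µM. Controls are untreated per the labels, and the study also speaks of vehicle. No transgene or deletion is named for either group. The question was how the messages of these genes stood with and without added cholesterol.

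The mTOR kinase works in a pair of complexes. In mTORC1 it is joined by the scaffold raptor (Rptor), which brings in substrates, and in mTORC2 by rictor (Rictor), while Mlst8 and the inhibitor Deptor can sit in both. The TSC1-TSC2 complex keeps the small GTPase Rheb inactive, and active Rheb at the lysosome switches mTORC1 on. The kinase then phosphorylates 4E-BP1 (Eif4ebp1), which releases the cap-binding protein eIF4E, and S6K1 (Rps6kb1), so that translation and ribosome production go up. Cholesterol at the lysosomal membrane is known to favour mTORC1 activity. That activity is a matter of phosphorylation, which RNA-seq does not measure, so the values below are messenger levels only.

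Libraries held between 19826849 and 20061724 counts, and 3 counts, taken as the floor of detection, corresponded to 0.151 CPM (counts scaled to library size by the TMM method). Erythroid markers summed to between 115400 and 171200 CPM over the 6 samples, and each of the 12 markers, Gata1, Klf1 and the globins among them, was detected in every sample. The sum was lower with cholesterol in each pair, by −0.277, −0.05 and −0.127 on the log2 scale. Of the 12, 10 were lower in all 3 pairs, against 20.1% of all genes, and 3 (Tfrc, Alas2 and Hbb-bs) were called lower in edgeR with the replicate number as a block, which called 5.2% of all genes lower and 1.65% higher. Samples with the same number in both groups resembled each other, less so for number 2. Their deviations from the group mean correlated across genes at 0.729, 0.348 and 0.825 for numbers 1 to 3. The summed level of 9 neutrophil markers was 70.4, 253 and 674 CPM in control samples 1 to 3 and 40.5, 110 and 281 CPM in cholesterol samples 1 to 3. It thus varied with the number and was lower with cholesterol in every pair. All 9 were called lower with the block. The summed level of 10 macrophage markers also varied with the number and was lower with cholesterol in every pair, at 18.9, 43.0 and 132 CPM in control and 14.2, 20.4 and 62.4 CPM with cholesterol. Of its 9 tested markers, 5 were called lower with the block and 1 higher, Cd5l, at 0.152, 0.198 and 1.30 CPM in control and 0.838, 0.889 and 3.83 CPM with cholesterol (edgeR adjusted p = 0.00319). Of 6 mast cell and basophil markers, 2 were abundant enough to test, and both were called lower with the block, Cpa3 by a log2 fold change of −2.18 (edgeR adjusted p = 0.000109) and Mcpt8 by −2.57 (edgeR adjusted p = 0.000484). Both rest on few reads. Cpa3 had 1.21, 1.98 and 7.63 CPM in control and 0.444, 0.543 and 1.18 CPM with cholesterol. Mcpt8 had 0.253, 1.19 and 7.94 CPM in control and 0, 0.445 and 0.971 CPM with cholesterol. The sum of the 6 markers was lower in every pair, by −1.71, −1.73 and −2.69 on the log2 scale, while Fcer1a was at 0 in 4 samples. Megakaryocyte markers summed to 80.2 to 95.2 CPM in control and 77.6 to 86.6 CPM with cholesterol, lower in each pair. They did not go one way. Of the 6, 1 was called lower with the block, Itga2b (edgeR adjusted p = 0.00538), with means of 43.3 CPM in control and 35.6 CPM with cholesterol. In all 3 pairs, 2 others, Gp9 and Vwf, were higher, and neither was called with the block (edgeR adjusted p = 0.0868 and 0.742). Hepatocyte markers summed to 93.4 to 268 CPM in control and 64.8 to 228 CPM with cholesterol, with pair differences of 0.809, −0.528 and −0.234 on the log2 scale, and 0 of 5 were called. In bulk RNA, fewer cells of a type and less RNA per cell cannot be told apart. The part of these other cells in the values of the mTOR genes was not tested.

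Per transcript length, Eif4ebp1, Rheb and Rps6kb1 stood at the top of the group and the kinase with its subunits below. Eif4ebp1 had a mean of 117 FPKM over the 6 samples, with a range of 97.1 to 136 FPKM, which was 18.4-fold the level of Mtor. Rheb followed at 50.1 FPKM (range 46.0 to 53.0) and Rps6kb1 at 20.03 FPKM (range 18.3 to 21.5). These 3 genes did not overlap each other or any lower gene in any sample. Tsc2 at 15.02 FPKM and Mlst8 at 11.9 FPKM came next, and although their ranges overlapped, Tsc2 was the higher of the pair in 6 of 6 samples.

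A cluster of 4 genes lay close together below them. Rptor averaged 6.47 FPKM (range 5.42 to 7.64), Mtor 6.35 FPKM (6.02 to 6.6), Rictor 5.28 FPKM (4.46 to 6.48) and Tsc1 4.98 FPKM (4.28 to 5.97). Rptor exceeded Mtor in only 4 of 6 samples, so these neighbours could not be ranked, and Mtor exceeded Rictor in 6 of 6 although their ranges overlapped. Rictor exceeded Tsc1 in 5 of 6. Among all tested genes, Eif4ebp1 lay at percentile 94.4 and the 4 clustered genes between percentiles 41.5 and 46.7. Tsc1 was at 4.54 FPKM ± 0.276 (SD, n = 3) in control, against 14.7 FPKM ± 2.43 for its partner Tsc2. Deptor, which encodes an inhibitor of both complexes, was barely present, with 0.10 to 0.16 FPKM, 1.97% of the level of Mtor, from 17 to 27 reads per library after rounding.

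**Figure D1:**
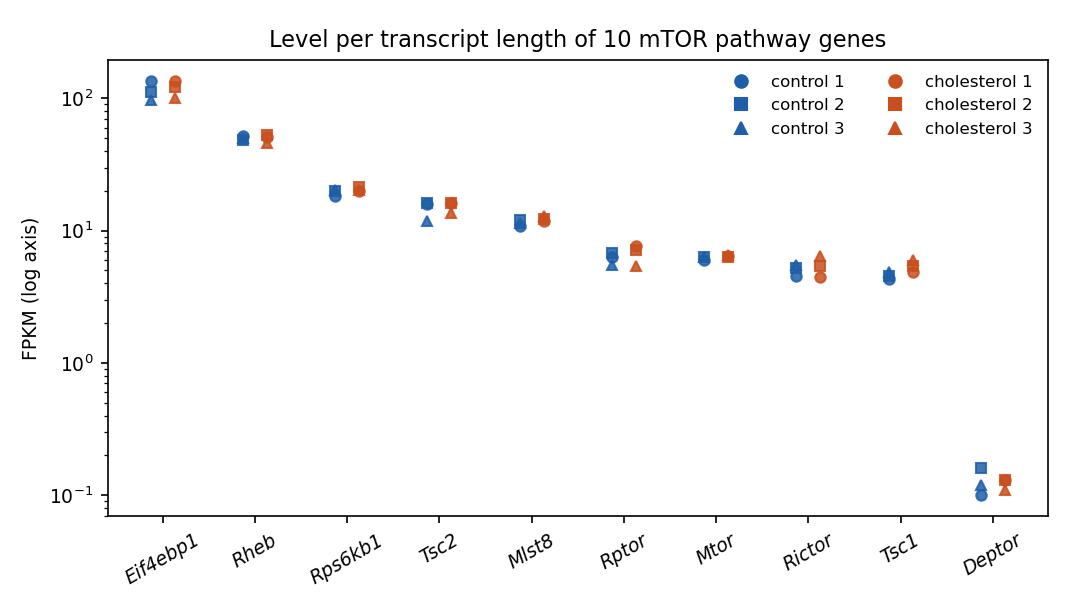
FPKM (log axis) of the 10 genes in each of the 6 samples, ordered by mean level; blue marks control, orange cholesterol, and the marker shape gives the replicate number. Eif4ebp1 lies near 117 FPKM on average and Deptor at or below 0.16 FPKM; on this scale the control and cholesterol samples overlap for every gene but Tsc1.

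All 10 genes were matched to RefSeq positions on GRCm38.p6, the build that the submitters' processing notes name. Mtor occupies chr4:148448582-148557685, Rptor chr11:119602905-119899591, Rictor chr15:6708349-6800401, Mlst8 chr17:24473550-24479114 and Deptor chr15:55112317-55259273. Tsc1 lies at chr2:28640993-28691172 and Tsc2 at chr17:24595816-24632676. Rheb lies at chr5:24802823-24842361, Eif4ebp1 at chr8:27260327-27275656 and Rps6kb1 at chr11:86498869-86544885. RefSeq promoter windows, here the 250 bases before a start site, were at hand for 8 of the 10 genes, the others being Eif4ebp1 and Deptor. The windows of Rptor and Rictor are shown because these genes, which set the identity of the 2 complexes, went opposite ways with the replicate number. For this pair, only bases outside GENCODE exons and the RefSeq gene body are printed, 5′ to 3′, in lower case since none of the searched motifs occurs in them.
Rptor promoter, chr11:119602655-119602904, plus strand: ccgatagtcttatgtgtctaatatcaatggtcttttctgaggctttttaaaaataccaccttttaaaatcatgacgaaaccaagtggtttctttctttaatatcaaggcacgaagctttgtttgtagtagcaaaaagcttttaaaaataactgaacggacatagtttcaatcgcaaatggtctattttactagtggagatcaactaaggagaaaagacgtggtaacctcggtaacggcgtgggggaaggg
Rictor promoter, chr15:6708131-6708348, plus strand: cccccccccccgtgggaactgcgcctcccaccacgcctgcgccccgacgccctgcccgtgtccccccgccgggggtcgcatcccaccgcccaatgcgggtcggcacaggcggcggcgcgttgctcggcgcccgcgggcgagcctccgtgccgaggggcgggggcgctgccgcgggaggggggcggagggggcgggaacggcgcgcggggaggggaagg
Over the whole 250-base windows, G and C made up 37.6% of the bases at Rptor and 81.2% at Rictor, against a median of 52.4% over all promoters.

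On both strands of the windows, 3 motifs were searched, with no overlap between the matches. The letters GATAA, bound by GATA factors such as the erythroid regulator GATA1, occurred at Tsc1 and Rps6kb1, and in 22.6% of 32851 promoter windows in all. The E-box CACGTG, bound by factors such as MYC and TFEB, occurred at Rheb, and in 6.02% of the windows in all. The sterol regulatory element TCACNCCAC occurred at 0 of the 8 genes and in 1.05% of the windows. Each match is shown in capitals within 30 bases, read in the direction of its gene, so that GATAA on the opposite strand reads as its reverse complement.
Tsc1, chr2:28641062-28641091, plus strand: tttcggttttatTTATCtcggccagcttgt
Rps6kb1, chr11:86544990-86545019, minus strand: ttcaatttcaatTTATCaacttcagatatg
Rheb, chr5:24842440-24842469, minus strand: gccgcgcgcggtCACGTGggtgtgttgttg
The stretch at Tsc1 lies within the RefSeq gene span, that at Rheb lies in exonic sequence of Rheb, and that at Rps6kb1 overlaps an exon of the neighbouring gene Tubd1. These matches describe letters and do not show binding.

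With cholesterol, none of the 10 genes passed the test when samples were compared by condition alone. In edgeR's quasi-likelihood test every adjusted p was 1, and 0 of the 10 had an unadjusted p under 0.05, as against 297 of all genes (2.63%). DESeq2 also called 0 of the 10. Over all genes, 1 gene was called (0.00887%). The median log2 fold change of the 10 genes was 0.05, beside 0.01 over all genes tested, and 8 of them had a higher mean with cholesterol. When the replicate number entered as a block, 1 of the 10 genes, Tsc1, was called higher and 0 were called lower. Over all genes the block gave 186 higher (1.65%) and 586 lower (5.2%), 772 (6.85%) in either direction. A single call among 10 genes cannot be set apart from these shares.

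Tsc1, which encodes hamartin, the stabilizing partner of the TSC complex, had 33.9, 34.8 and 39.7 CPM in control samples 1 to 3 and 37.4, 41.6 and 47.5 CPM in cholesterol samples 1 to 3. Cholesterol was higher in each of the 3 pairs, while the groups overlapped in CPM, because control sample 3 stood above cholesterol sample 1. In FPKM they did not overlap, since control reached 4.83 and cholesterol began at 4.87. The means were 36.1 CPM ± 3.10 (SD, n = 3) and 42.2 CPM ± 5.06 (SD, n = 3). By condition alone the log2 fold change was 0.22 (standard error 0.11, edgeR adjusted p = 1, 95% interval −0.05 to 0.50). Without cholesterol sample 3 it was 0.13 and without cholesterol sample 1 it was 0.30. With the block it was 0.22 (standard error 0.06, edgeR adjusted p = 0.0246, 95% interval 0.10 to 0.34), or 16.6% higher. Within pairs, the log2 difference was 0.14, 0.26 and 0.26. The call was lost with the block in DESeq2 (adjusted p = 0.421), in limma on log2(FPKM + 1) (adjusted p = 0.178), and in edgeR without both samples numbered 2 (adjusted p = 0.174) or both numbered 3 (adjusted p = 0.0771), while the log2 fold change of Tsc1 stayed between 0.20 and 0.26 over the 8 alternatives with the block. The labels do not say what the numbers stand for, nor whether samples came from separate cultures or animals, so p-values measure only the spread between these samples.

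Tsc2 encodes tuberin, the subunit that acts on Rheb, and was not called. It measured 91.9, 89.1 and 69.8 CPM in control samples 1 to 3 and 90.1, 90.5 and 77.5 CPM with cholesterol. The groups overlapped, sample 3 was the lowest in each, and 7.2% of its exonic bases are shared with Pkd1 in the annotation. Its log2 fold change was 0.04 (standard error 0.13, edgeR adjusted p = 1). Rheb, the GTPase that TSC2 turns off, had 80.7, 72.4 and 80.5 CPM in control and 76.1, 79.5 and 71.4 CPM with cholesterol. It was higher in 1 pair and lower in the other two, with a log2 fold change of −0.04 (standard error 0.08, edgeR adjusted p = 1). The ratio of Tsc1 to Tsc2 in FPKM was 0.267, 0.280 and 0.407 in control and 0.300, 0.332 and 0.440 with cholesterol. It was higher with cholesterol in each pair, by 0.17, 0.24 and 0.11 on the log2 scale, but the groups overlapped, and the two-sided exact permutation test over samples gave p = 0.5 (0.9 after Benjamini-Hochberg adjustment over 4 ratios), where the smallest p that 3 against 3 samples allow is 0.1. This test takes no account of the pairs, and an exact test over 3 pairs could not go below 0.25, so neither could pass the threshold. Leaving out 1 sample moved the difference of this ratio to between 0.014 (without cholesterol sample 3) and 0.365 (without control sample 3). The ratio of Rheb to Tsc2 lay between 2.99 and 4.27 in control and between 3.13 and 3.39 with cholesterol (exact permutation p = 0.9, adjusted p = 0.9). Its log2 difference of −0.087 turned to 0.065 without control sample 3.

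Among the subunits, none was called. The kinase gene Mtor had 53.9, 53.6 and 57.9 CPM in control and 55.8, 54.0 and 59.1 CPM with cholesterol. Its values were higher with cholesterol in 3 of 3 pairs, though by no more than 0.05 on the log2 scale, and the fitted log2 fold change was 0.03 (standard error 0.07, edgeR adjusted p = 1). The 95% interval with the block ran from −0.08 to 0.14.

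Mlst8 encodes a small subunit that binds the kinase domain. It had 38.1, 40.7 and 40.4 CPM in control and 39.8, 41.1 and 45.0 CPM with cholesterol. The log2 fold change was 0.08 (standard error 0.08, edgeR adjusted p = 1). It was higher in all 3 pairs but the groups overlapped, and without cholesterol sample 3 or control sample 1 the log2 fold change was 0.028 and 0.052. Of the exonic bases of Mlst8, 22.5% are shared with Bricd5 in the GENCODE annotation, and the strand was not given. The share of its reads that came from these bases was not measured, so how far they affect its level is not known. Estimated counts that were not whole, as arise when reads are divided between genes, were found for Mlst8 in 5 samples, for Rps6kb1 in 2 and for Deptor, Tsc2 and Rheb in all 6, although Rheb shares no exonic bases with another gene. The counts of the other 5 genes were whole in every sample. Deptor, with few reads, went from 1.10 CPM ± 0.239 (SD, n = 3) to 1.05 CPM ± 0.0660 (SD, n = 3). Its 95% interval reached from −0.77 to 0.64 on the log2 scale, and differences within these bounds remain compatible with its values.

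Rptor and Rictor tell mTORC1 from mTORC2, and they diverged across the numbered samples. Rptor had 39.1, 41.5 and 33.2 CPM in control and 47.0, 41.99 and 34.1 CPM with cholesterol. Sample 3 was the lowest in each group. The log2 fold change with cholesterol was 0.11 (standard error 0.14, edgeR adjusted p = 1), and within pairs the log2 difference was 0.26, 0.02 and 0.04, so most of it lay in pair 1. Without cholesterol sample 1 the log2 fold change of Rptor was 0.004, without control sample 3 it was 0.026, and without cholesterol sample 3 or control sample 2 it was 0.233 and 0.184.

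Rictor had 43.8, 49.3 and 55.0 CPM in control and 41.8, 50.9 and 62.8 CPM with cholesterol, so sample 3 was the highest in each group. Its log2 fold change was 0.07 (standard error 0.16, edgeR adjusted p = 1), with pair 1 lower and the other two pairs higher. The ratio of Rptor to Rictor in FPKM was 1.41, 1.29 and 1.004 in control and 1.71, 1.31 and 0.836 with cholesterol. It differed between groups by 0.01 on the log2 scale (exact permutation p = 0.9, adjusted p = 0.9), and this became −0.225 without cholesterol sample 1 and 0.292 without cholesterol sample 3. Between samples 3 and 1 the log2 difference was −0.49 in control and −1.03 with cholesterol.

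Neither effector gene was called. Eif4ebp1, the translational repressor that mTORC1 inactivates, had 133, 106 and 98.3 CPM in control and 130, 116 and 100 CPM with cholesterol. The groups overlapped, and the log2 fold change was 0.03 (standard error 0.14, edgeR adjusted p = 1). Its target Eif4e, which encodes the cap-binding protein, went from 178 to 169 CPM on average (log2 fold change −0.07, edgeR adjusted p = 1). The ratio of Eif4ebp1 to Eif4e in FPKM was 1.46, 1.16 and 1.23 in control and 1.42, 1.32 and 1.39 with cholesterol, and the exact permutation test gave p = 0.4 (adjusted p = 0.9).

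Rps6kb1 encodes the kinase that phosphorylates ribosomal protein S6. It had 68.5, 70.1 and 68.7 CPM in control and 71.4, 74.2 and 71.0 CPM with cholesterol, and was the only one of the 10 whose groups did not overlap in CPM. The same separation in the higher direction occurred for 419 of all genes (3.72%), and for 902 (8%) in either direction. Its log2 fold change was 0.06 (standard error 0.06, edgeR adjusted p = 1). In FPKM the groups of Rps6kb1 did overlap, because control sample 3 at 20.14 FPKM stood above cholesterol sample 1 at 20.08 FPKM. The transcript length that its counts and FPKM values imply varied between 3290 and 3691 bases over the samples, a spread matched or exceeded by 4.67% of 8482 genes, and the reason was not tested. Higher values in all 3 pairs were found for 5 of the 10 genes (Mtor, Rptor, Mlst8, Tsc1 and Rps6kb1), against 19.9% of all genes, and lower values in all 3 pairs for 0 of the 10, against 20.1%.

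**Figure D2:**
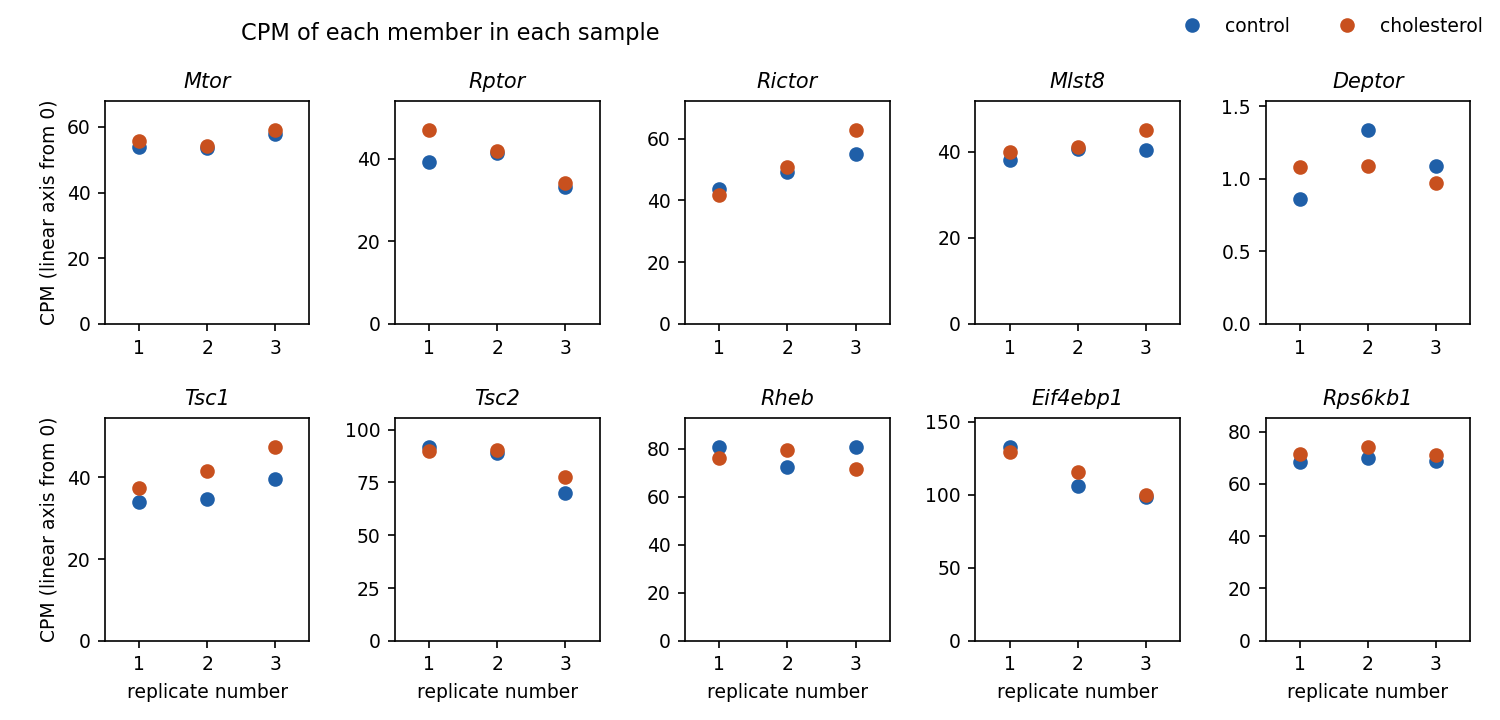
CPM (linear axes from 0) of each of the 10 genes against replicate number; blue points are control and orange points cholesterol samples. Mtor, Rptor, Mlst8, Tsc1 and Rps6kb1 are higher with cholesterol at every number, and in the samples numbered 3 Rictor is highest, up to 62.8 CPM, and Eif4ebp1 lowest.

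**Figure D3:**
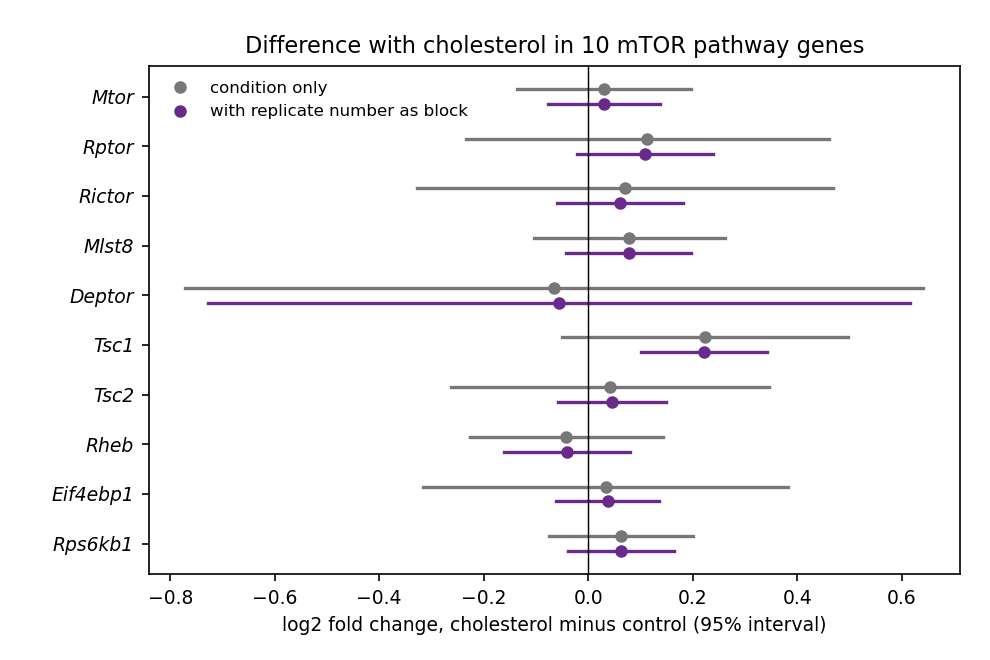
Log2 fold change, cholesterol minus control, of the 10 genes with 95% intervals from edgeR, in grey by condition alone and in purple with the replicate number as block. Only the interval of Tsc1 with the block, 0.10 to 0.34, lies clear of 0, and Deptor has the widest intervals.

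With the block, the 95% intervals of the other genes except Deptor all included 0 and lay between −0.16 (the lower end for Rheb) and 0.24 (the upper end for Rptor) on the log2 scale. Leaving out 1 sample turned the sign of the log2 fold change by condition alone for Mtor, Rictor, Deptor, Tsc2, Rheb and Eif4ebp1. A p that missed the threshold does not show that the levels were equal.

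The replicate number went with larger differences than cholesterol did for several of the genes. In edgeR's F test of the number, 5 of the 10 genes were called, beside 5220 of all genes (46.3%). DESeq2's likelihood ratio test called 4 of the 10, beside 24.9% of all genes, so the share over all genes depended on the tool, and nothing is read from the share of the 10. Eif4ebp1 had the smallest p, with samples numbered 3 lower than those numbered 1 by a log2 difference of −0.40 (adjusted p = 4.1e-05 in edgeR). Rptor and Tsc2 were lower in the same direction, by −0.35 (edgeR adjusted p = 0.00154) and −0.31 (edgeR adjusted p = 0.000549). Rictor was higher in samples numbered 3, by 0.46 (edgeR adjusted p = 0.000116), and Tsc1 by 0.29 (edgeR adjusted p = 0.00724). The call of Tsc1 was lost in DESeq2 and in edgeR without cholesterol sample 1 or 3. The ratio of Tsc1 to Tsc2 was thus higher in sample 3 than in sample 1 by 0.61 in control and 0.55 with cholesterol on the log2 scale. Mtor, Mlst8, Deptor, Rheb and Rps6kb1 were not called, with adjusted p between 0.235 for Mtor and 0.813 for Rheb in edgeR. Marker sums also differed between samples 3 and 1 on the log2 scale. The neutrophil sum was higher in sample 3 by 3.26 in control and 2.79 with cholesterol. The macrophage sum was higher by 2.81 and 2.13, and the mast cell and basophil sum by 3.43 and 2.45. The hepatocyte sum was higher by 1.27 and 0.227, and the erythroid sum by 0.291 and 0.442. Megakaryocyte markers gave 0.088 and −0.097. Of the 12 erythroid markers, 10 were called by number in edgeR, against 46.3% of all genes. The part of any cell type in these differences was not tested.

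**Figure D4:**
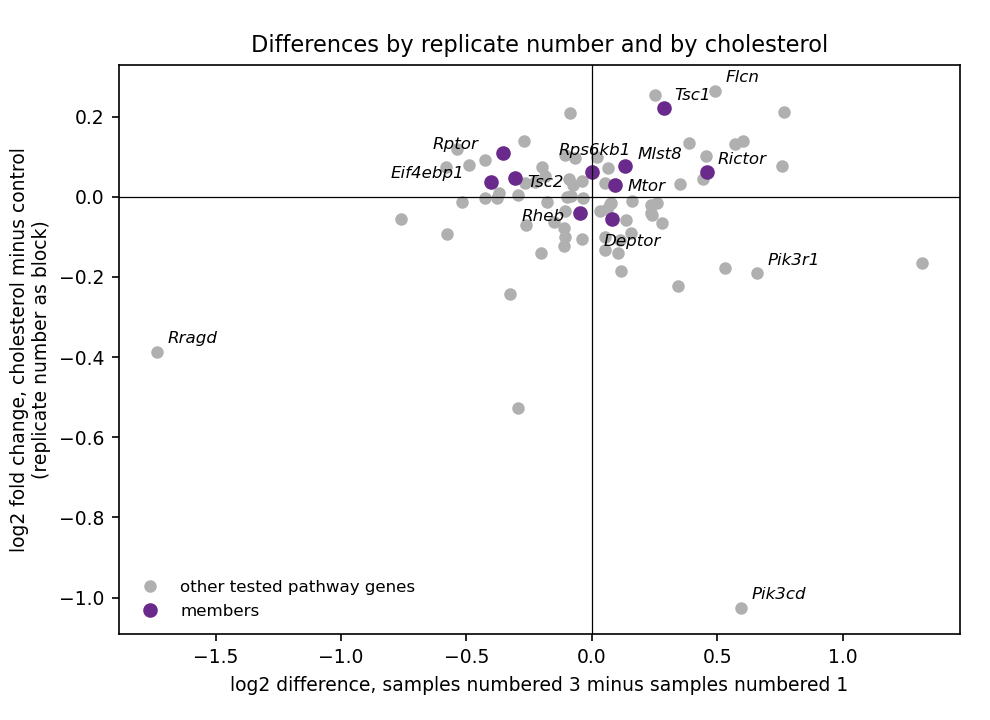
Each point is 1 of 82 tested pathway genes: the horizontal axis gives the log2 difference between samples numbered 3 and 1, the vertical axis the log2 fold change with cholesterol in the blocked fit. The 10 genes described here (purple) reach −0.40 and 0.46 along the horizontal axis but no more than 0.22 along the vertical one; names mark these genes and the other genes called with the block.

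The wider pathway was followed in 5 lists of 87 genes that include the 10, of which 82 were tested. By condition alone 0 were called in edgeR, and 1, Pik3cd, had an unadjusted p under 0.05. DESeq2 called 0 as well. With the block, 2 were higher (Tsc1 and Flcn) and 3 lower (Rragd, Pik3cd and Pik3r1), against the background of 1.65% and 5.2% of all genes. Over the 8 alternatives run with the block, each of the 5 kept its direction, while the call was kept in 1 for Flcn, 4 for Tsc1, 4 for Rragd, 4 for Pik3r1 and 6 for Pik3cd. Limma on log2(FPKM + 1) and edgeR without both samples numbered 2 called none of the 5. Across the 82 genes, 40 had a higher and 42 a lower mean, and their median log2 fold change was −0.003 beside 0.006 over all genes.

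Of the 11 genes for subunits and assembly factors, 0 were called with or without the block. Mapkap1, which encodes the mTORC2 subunit SIN1, had 40.3 CPM in control and 36.7 CPM with cholesterol (log2 fold change −0.13, edgeR adjusted p = 1), and Akt1s1, which encodes the mTORC1 inhibitor PRAS40, had 25.1 and 26.8 CPM (0.10, edgeR adjusted p = 1). In the list of 5 TSC-Rheb genes, Tsc1 was the single call with the block. Tbc1d7, the third subunit of the TSC complex, had 8.93 and 10.3 CPM (log2 fold change 0.20, edgeR adjusted p = 1), and the Rheb homologue Rhebl1 had 0.882 and 0.914 CPM.

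Among 19 substrates and translation effectors, 0 were called with or without the block, and 2 had groups that did not overlap in the higher direction, Rps6kb1 and Atg13, against 3.72% of all genes. Atg13 is named only because it completes this count. Eef2k, the kinase that slows elongation and that S6K1 inhibits, had 132, 127 and 139 CPM in control and 117, 117 and 128 CPM with cholesterol. It was lower in all 3 pairs but missed the threshold (log2 fold change −0.14, edgeR adjusted p = 1, and 0.0619 with the block). Tfe3, a transcription factor that mTORC1 keeps out of the nucleus, had 42.3 and 39.4 CPM (log2 fold change −0.10, edgeR adjusted p = 1).

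The lysosomal list of Rag GTPases, Ragulator subunits and nutrient sensors had 29 of 32 genes tested, and the block gave 1 higher and 1 lower, against 1.65% and 5.2% of all genes. Flcn, which encodes folliculin, an activator of the Rag GTPases RagC and RagD, had 20.2, 20.6 and 25.3 CPM in control and 22.7, 22.5 and 35.2 CPM with cholesterol (log2 fold change with the block 0.26, edgeR adjusted p = 0.0433). Over the 8 alternatives its log2 fold change lay between 0.143, without both samples numbered 3, and 0.329, with adjusted p between 0.00469 and 0.541. Rragd, which encodes RagD, had 21.1, 13.1 and 5.76 CPM in control and 13.9, 11.6 and 4.65 CPM with cholesterol (log2 fold change with the block −0.39, edgeR adjusted p = 0.0293). Over the alternatives it lay between −0.495 and −0.223, the latter without both samples numbered 1, with adjusted p between 0.00208 and 0.54. For both, the spread across numbers exceeded the difference with cholesterol, and neither was called by condition alone. The Ragulator subunits Lamtor1 and Lamtor2 had log2 fold changes of −0.11 and −0.12 (edgeR adjusted p = 1 for each), and the groups of Lamtor2 did not overlap, as for 8% of all genes.

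Of 18 tested genes for PI3K, AKT and AMPK, which lie upstream of TSC2, 2 were lower with the block, against 5.2% of all genes. Pik3cd, which encodes the PI3K catalytic subunit p110δ that is most abundant in white blood cells, had 7.99, 9.26 and 16.3 CPM in control and 5.62, 4.79 and 5.57 CPM with cholesterol. Its groups did not overlap, and its log2 fold change was −1.07 by condition alone (unadjusted p = 0.00913, edgeR adjusted p = 1) and −1.03 with the block (edgeR adjusted p = 0.00789). Over the alternatives it lay between −1.27 and −0.616, the latter in limma on log2(FPKM + 1), with −0.729 without both samples numbered 3 and adjusted p between 1.05e-10 and 0.152. Its highest value fell in control sample 3, the sample with the highest sum of neutrophil markers, 674 CPM. With cholesterol that sum rose over samples 1 to 3, at 40.5, 110 and 281 CPM, while Pik3cd did not. The part of other cells in the difference of Pik3cd was not tested. Pik3r1, which encodes a regulatory subunit of PI3K, had 65.6 CPM ± 12.7 (SD, n = 3) in control and 58.0 CPM ± 16.4 (SD, n = 3) with cholesterol (log2 fold change with the block −0.19, edgeR adjusted p = 0.044, and 0.000862 to 0.421 over the alternatives). Prkaa1, which encodes the AMPK catalytic subunit α1, had 82.2 and 87.9 CPM (log2 fold change 0.10, edgeR adjusted p = 1). Like those of Pik3cd, its groups did not overlap, which held for 8% of all genes.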

How the data were processed

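RNA-seq was analysed for 3 control and 3 cholesterol samples, grouped by the treatment label. Per the labels, polyadenylated RNA was sequenced as single-end reads of 50 bases; strand was not given in the sources used here. The submitters' processing notes name HISAT2 2.0.4, Bowtie2 2.2.5, RSEM 1.2.12, DESeq2 1.4.5 and GRCm38.p6. The authors deposited expected counts per gene, without normalization, of which 27.9% to 29.5% per sample were not whole, and a table of normalized values with no unit named. The deposited normalized values were taken as FPKM, because with counts and totals they give transcript-like lengths. The tests had been planned for whole counts, so expected counts were rounded.

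Genes were filtered with filterByExpr (minimum count 10, minimum total 15), which left 11277 genes; of the 17463 listed, 878 were at 0 in every sample. The robust quasi-likelihood test of edgeR 4.0.16 (R 4.3.3) was used after TMM scaling, with Benjamini-Hochberg adjustment over all genes tested and a threshold of 0.05. The members and lists were chosen with earlier results of these data known. The genes named beside the 10 are, in each of 5 lists, the 2 other genes with the smallest unadjusted p, any list gene called without or with the block, and Eif4e. Atg13 lies outside this rule and was chosen after its values were seen. The labels number the samples 1 to 3 in either group. Deviations from the group mean correlated across genes between samples of one number at 0.729, 0.348 and 0.825, so the numbers were taken to pair the samples. No 2 libraries were copies (chi-square per degree of freedom of 8.2 or more for each pair of libraries). Ratios were compared by a two-sided exact permutation test.

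Alternatives were DESeq2 1.42.0, upper-quartile normalization, no filter, at least 10 counts in every sample, limma 3.58.1 on log2(FPKM + 1) or log2(FPKM + 0.1), the replicate block, and each sample left out; those combined with the block (except the block itself) and those leaving out both samples of a number were chosen after the data were seen. The scripts were tested on simulated data. Sequences and positions came from RefSeq tables on GRCm38.p6, and exon overlaps from GENCODE.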

Additional observations from a re-analysis of the deposited data

How the results depend on the processing

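By condition alone, 0 of the 10 genes were called in the fit reported and under 13 of 14 alternatives; the replicate block called 1, and in the 5 lists it moved the counts from 0 to 2 higher and from 0 to 3 lower, changing no other call among the 82 tested pathway genes. With the block, the count of the 10 fell from 1 to 0 under DESeq2, under limma on log2(FPKM + 1), and without both samples numbered 2 or both numbered 3. Leaving out 1 sample at a time turned the sign of small log2 fold changes: Rictor ranged from −0.088 to 0.205, Deptor from −0.208 to 0.106, Eif4ebp1 from −0.059 to 0.175, Tsc2 from −0.073 to 0.118, Mtor from −0.003 to 0.068 and Rheb from −0.09 to 0.002. The sign held for Tsc1 (0.133 to 0.304), Rptor (0.004 to 0.233), Mlst8 (0.028 to 0.115) and Rps6kb1 (0.041 to 0.078). The ratio of Rptor to Rictor ranged from −0.225 to 0.292 that of Rheb to Tsc2 from −0.192 to 0.065, that of Tsc1 to Tsc2 from 0.014 to 0.365 and that of Eif4ebp1 to Eif4e from 0.036 to 0.202 on the log2 scale. Without both samples numbered 3, the log2 fold changes were −0.009 for Rictor, −0.005 for Tsc2 and 0.022 for Rheb, and with the block −0.011, −0.005 and 0.023. Without both samples numbered 2 and with the block, they were 0.082 for Deptor and −0.007 for Eif4ebp1. None of these values was past the threshold. With the block and its 8 alternatives, the lists gave between 0 and 3 genes higher and between 0 and 5 lower. The number test called 4 or 5 of the 10, losing Tsc1 under DESeq2 (24.9% of all genes called) and without cholesterol sample 1 (39.6%) or 3 (39.8%), against 46.3% in the fit reported. Among the 10 genes, Deptor had the fewest reads, 17 to 27 per library.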
